A study of Mus musculus with 6 samples.

Results

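The proteasome genes described here are the mouse genes whose symbols begin with Psma, Psmb, Psmc, Psmd or Psme followed by a digit, without the inducible subunit genes Psmb8 and Psmb9. Of 16871 genes listed in the files, 44 met this rule, and all 44 entered the test. RNA was sequenced from macrophages grown for 7 days out of the bone marrow of C57BL/6 mice aged 8 weeks. There were 3 control libraries from cells lacking the low-density lipoprotein receptor (LKO) and 3 libraries from cells without that receptor that also lacked ALDH2, an aldehyde dehydrogenase of mitochondria (DKO). Both groups carried the receptor knockout and both were given oxidised low-density lipoprotein (oxLDL), so neither an untreated nor a wild-type library enters the comparison. The labels do not say whether libraries of a group came from separate animals, and p-values measure the spread between these libraries, which may be technical.

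The proteasome is the protease that degrades proteins tagged with ubiquitin. Its barrel, the 20S core particle, is a stack of alpha and beta rings in which only some beta subunits cut peptide bonds. The 19S regulatory particle caps the barrel, and its base unfolds substrates with a ring of ATPases while its lid removes the ubiquitin chain. Interferons induce alternative catalytic subunits, and a core carrying them is called the immunoproteasome. Other caps, encoded by the Psme genes, bind the same barrel without the need for ubiquitin. In macrophages the proteasome turns over damaged proteins and signalling inhibitors and makes peptides for antigen presentation.

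The rule took in more than constitutive subunits. It held 31 genes of the 20S alpha ring, the constitutive beta ring, the 19S base and the 19S lid. It also held the inducible subunit gene Psmb10, the thymus and testis subunit genes Psmb11 and Psma8, 3 assembly chaperones of the 19S base and 4 activator caps. The last 3 were Psme2b, a gene named for its likeness to Psme2, Psme3ip1, which encodes a partner of the Psme3 product, and Psmc3ip, which encodes a meiotic recombination factor and no proteasome subunit. Another 6 symbols that match the rule are pseudogenes in the RefSeq gene table and had no entry in any library.

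Upstream sequence is shown for 4 genes because transcription factors discussed beside the values bind known motifs. NFE2L1, an activator of proteasome genes, and its relative NFE2L2, an activator of antioxidant genes, bind the antioxidant response element with core TGACNNNGC. Of 37 members with a RefSeq promoter entry that could be searched, 5 (13.5%) held this core on either strand in the 250 bases before the annotated start, against 11.5% of 27025 genes. Those 5 were Psmb5, Psmb6, Psmc6, Psmd9 and Psmd12, which encode subunits of 3 different parts of the particle and a chaperone. The core of the interferon-stimulated response element (GAAA, any bases NN, then GAAA) was found in 3 members (8.11%), against 3.46% of all genes, and the core of the gamma-activated site, TTCNNNGAA, in none of the 37, against 8.13% of all genes. The members with the interferon core were Psmb3, Psmd4 and Psmd9. The motifs searched can overlap each other, and a match is a stretch of letters, not a measured binding site. The stretches below run 5′ to 3′ on the strand of the gene with the matched core in capitals (RefSeq, GRCm38.p6). The first pair are constitutive catalytic subunit genes with an antioxidant core. The next is a constitutive beta subunit gene with an interferon core on the opposite strand. The last is the inducible subunit gene Psmb8, outside the rule, with the gamma-activated core that 8.13% of all genes hold. The same search returned no antioxidant or interferon core for Psmb8 and none of these cores for Psmb9. Whether any core bears on the level of its gene was not tested.
Psmb5 (chr14:54618009-54618067, minus strand): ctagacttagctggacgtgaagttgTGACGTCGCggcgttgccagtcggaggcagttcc
Psmb6 (chr11:70525323-70525356, plus strand): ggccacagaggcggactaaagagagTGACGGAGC
Psmb3 (chr11:97703246-97703305, plus strand): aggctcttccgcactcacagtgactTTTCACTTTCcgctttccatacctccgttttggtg
Psmb8 (chr17:34198073-34198131, plus strand): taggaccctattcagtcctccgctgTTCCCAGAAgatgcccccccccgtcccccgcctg

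Depth was even, between 10760625 and 10987584 expected counts per library. Aldh2, the targeted gene, had a mean of 241 ± 6.83 FPKM across LKO libraries and 7.13 ± 0.181 across DKO libraries (SD, n = 3 each; FPKM scales reads to transcript length and library size). Macrophage markers were high in every library, with 10 markers summing to between 9997 and 10705 FPKM in LKO and between 11182 and 12356 in DKO, where 5 passed as higher and 1 as lower. Other signals differed between the groups in the same libraries: 12 neutrophil markers summed to between 584 and 645 FPKM in LKO and between 378 and 419 in DKO, with 8 of 11 tested lower, and 8 stromal markers to between 40.2 and 46.1 and between 66.7 and 90.6, with 5 of 6 tested higher. All 4 tested lymphocyte markers were lower, with sums of 102 to 114 and 79.3 to 86.8 FPKM over the 8 found, and the T-cell gene Cd3e was at or below 0.19 FPKM in every library. The 3 erythroid genes found summed to at most 0.90 FPKM. Fewer cells of a type and less RNA per cell cannot be told apart in such bulk samples.

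The comparison of DKO with LKO asked whether loss of ALDH2 on top of the receptor knockout went with a different level of proteasome RNA. Of the 44 genes, 1 rose in DKO, Psme4, and none fell (edgeR quasi-likelihood test, adjusted p under 0.05 over 11809 genes). Over all genes tested, 14.3% passed, 7.42% higher and 6.88% lower. Among the 31 ring, base and lid subunits none passed in either direction, and none had an unadjusted p under 0.05. Before adjustment, 3 of the 44 (Psme4, Psme1 and Psmb10) were higher with a p under 0.05 and none lower, while 13.1% of all genes tested were higher and 12.7% lower at that level (edgeR). DESeq2 called Psme4 as higher and no member lower, and none of the 31 subunits had an unadjusted p under 0.05 there either. The median log2 fold change of the 44 genes was −0.003 and that of all genes tested 0.0002, and the median size regardless of sign was 0.06 against 0.11. These sizes do not compare like with like. The median SE was 0.058 for the members and 0.081 for all genes tested. The median LKO mean was 54.7 FPKM for the members and 3.67 for all genes listed. In sign the members divided evenly, with 22 above and 22 below 0.

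Missing the threshold does not show that a level was the same, so the intervals were read as well. The 95% interval of the fold change for each of the 31 subunits lay inside the range from 0.816 to 1.149. The 2 outer bounds belong to Psmd6 and Psmd11, both of the lid. Intervals were wide where counts were few: Psma8, with 12 to 23 counts per library, had an interval of 0.676 to 1.65, and Psmc3ip, with 7 to 19 counts, one of 0.672 to 2.02. For these 2 genes a change of that size was not detectable at this depth.

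**Figure D1:**
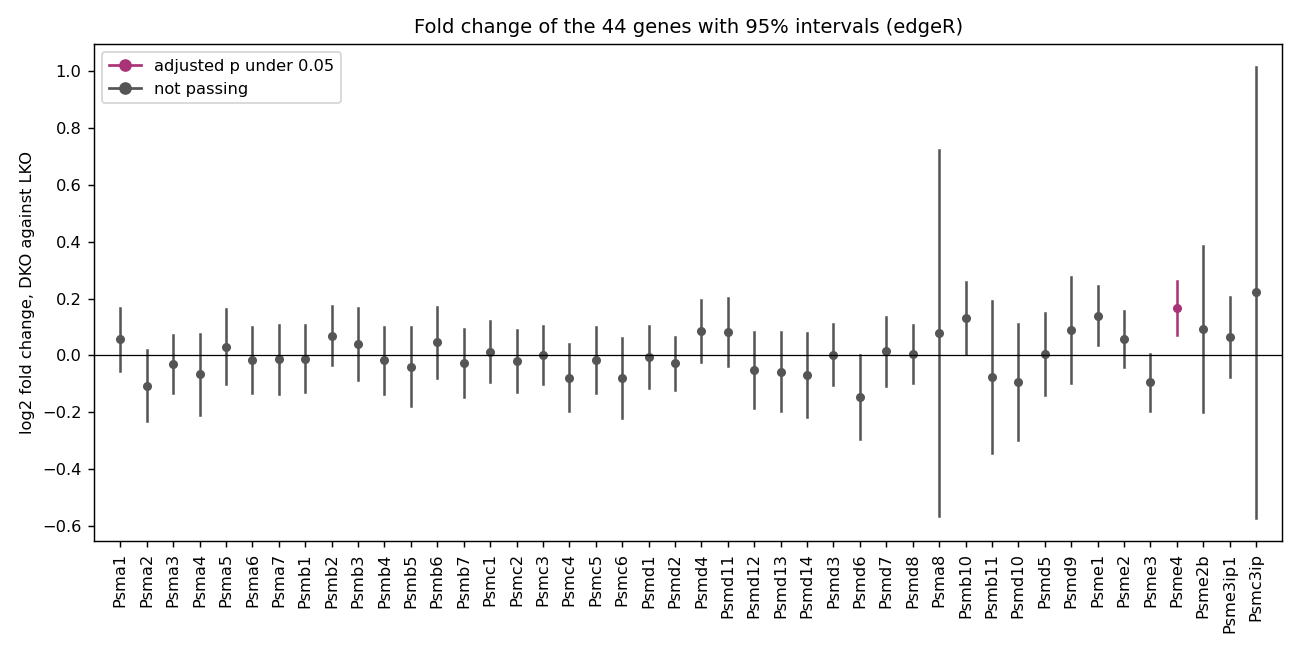
Log2 fold change of DKO against LKO for each of the 44 genes (points) with its 95% interval (lines) from the edgeR fit, ordered by role from the 20S rings on the left to the caps and other genes on the right. Only Psme4 is coloured as passing; Psma8 and Psmc3ip, the genes with the fewest counts, have the widest intervals.

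The 7 alpha ring genes, which form the outer rings and the gate of the barrel, spanned 51.8 FPKM (Psma3) to 113 FPKM (Psma6) in LKO. Psma6 was at 121, 115 and 104 FPKM in LKO and 111, 111 and 111 in DKO. The DKO libraries lay within the range of the LKO libraries (log2 fold change −0.02 ± 0.06 SE, edgeR adjusted p = 0.910). Psma2, at 124, 110 and 104 FPKM in LKO and 106, 104 and 102 in DKO, had the largest difference of the ring, a log2 fold change of −0.11 ± 0.06 (SE; edgeR adjusted p = 0.281). Its groups overlapped, and LKO replicate 1 was the highest library. Psma3, the lowest of the ring, was at 52.9, 49.6 and 52.8 FPKM in LKO and 49.8, 51.2 and 49.8 in DKO, again with overlap (log2 fold change −0.03 ± 0.05 SE, edgeR adjusted p = 0.753). The remaining alpha genes, Psma1, Psma4, Psma5 and Psma7, had log2 fold changes between −0.07 and 0.06.

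The 7 constitutive beta genes spanned 67.1 FPKM (Psmb7) to 130 FPKM (Psmb2) in LKO. Psmb2, a structural beta subunit, was the most abundant of the 31 subunits in both groups, at 134, 127 and 129 FPKM in LKO and 139, 134 and 132 in DKO. The groups overlapped, and the log2 fold change of 0.07 ± 0.05 (SE) did not pass (edgeR adjusted p = 0.425). The catalytic subunit genes were close to one another in level. Psmb5, of the chymotrypsin-like site, was at 62.1, 69.7 and 74.9 FPKM in LKO and 68.7, 65.9 and 64.8 in DKO. Psmb6, of the caspase-like site, was at 67.7, 65.3 and 72.6 FPKM in LKO and 74.4, 68.9 and 67.3 in DKO. Psmb7, of the trypsin-like site, was at 68.2, 65.9 and 67.3 FPKM in LKO and 65.3, 68.2 and 62.6 in DKO. In all 3 the groups overlapped, and edgeR adjusted p lay between 0.699 and 0.834. The log2 fold change of Psmb7 was −0.03 ± 0.06 (SE). Psmb5 and Psmb6, whose antioxidant cores are printed above, had log2 fold changes of −0.04 and 0.05. The other members with that core, Psmc6, Psmd9 and Psmd12, were at −0.08, 0.09 and −0.05. The members with the interferon core, Psmb3, Psmd4 and Psmd9, were at 0.04, 0.08 and 0.09, and none of them passed. Psmb1 and Psmb4 were at −0.01 and −0.02.

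In the 19S base, the 6 ATPase genes spanned 39.0 FPKM (Psmc6) to 95.4 FPKM (Psmc1) in LKO. Psmc1 was at 101, 95.4 and 89.6 FPKM in LKO and 96.7, 94.0 and 96.2 in DKO, with the groups overlapping (log2 fold change 0.01 ± 0.05 SE, edgeR adjusted p = 0.920). Psmc6 was at 43.0, 36.2 and 37.7 FPKM in LKO and 37.5, 34.3 and 37.9 in DKO. Its log2 fold change of −0.08 ± 0.07 (SE) was the largest of the 6 in size (edgeR adjusted p = 0.511), and its groups overlapped as well. Psmc3 had almost the same mean in both groups, 63.5 ± 0.917 FPKM for LKO and 63.0 ± 1.01 for DKO (SD, n = 3 each). The genes of the base scaffold overlapped between groups. Psmd2 was at 75.3, 71.7 and 73.5 FPKM in LKO and 69.6, 73.8 and 71.2 in DKO (log2 fold change −0.03 ± 0.04 SE, edgeR adjusted p = 0.761). Psmd1 was at 52.0, 45.2 and 47.5 FPKM in LKO and 48.5, 47.7 and 46.8 in DKO (log2 fold change −0.01 ± 0.05 SE, edgeR adjusted p = 0.967). The gene of the ubiquitin receptor Psmd4 was at 62.63, 62.06 and 61.19 FPKM in LKO and 66.80, 66.03 and 62.64 in DKO. Every DKO library of Psmd4 lay above every LKO library, though the closest pair nearly met, and the log2 fold change of 0.08 ± 0.05 (SE) did not pass (edgeR adjusted p = 0.337).

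The 8 lid genes spanned 30.5 FPKM (Psmd12) to 79.1 FPKM (Psmd8) in LKO. Psmd8 was at 78.0, 78.8 and 80.7 FPKM in LKO and 81.7, 76.6 and 78.2 in DKO, with overlap (log2 fold change 0.01 ± 0.05 SE, edgeR adjusted p = 0.966). Psmd12, the lowest of the 31 subunits in both groups, was at 32.5, 30.4 and 28.5 FPKM in LKO and 28.3, 30.4 and 28.8 in DKO (log2 fold change −0.05 ± 0.06 SE, edgeR adjusted p = 0.679). Psmd14, which encodes the enzyme that cuts off the ubiquitin chain, was at 41.0, 33.8 and 36.5 FPKM in LKO and 37.2, 35.7 and 32.3 in DKO, and these groups overlapped too. The largest fold change of the 31 subunits was that of Psmd6, a structural lid subunit, at 35.2, 33.5 and 33.1 FPKM in LKO and 32.9, 27.3 and 31.04 in DKO. Each DKO library of Psmd6 lay below each LKO library, but the log2 fold change of −0.15 ± 0.07 (SE) did not pass (unadjusted p = 0.0506, edgeR adjusted p = 0.195). Psmd11 lay on the other side, at 34.4, 36.5 and 36.5 FPKM in LKO and 36.8, 37.2 and 38.6 in DKO, without overlap and without passing (log2 fold change 0.08 ± 0.06 SE, edgeR adjusted p = 0.413). Psmd3 and Psmd7 had log2 fold changes of 0.00 and 0.01, and Psmd13 one of −0.06.

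The groups did not overlap in FPKM for 6 of the 44 genes, while this held for 29.6% of all genes tested. DKO was above LKO in Psmd4, Psmd11, Psme1 and Psme4 and below it in Psmd6 and Psme3.

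**Figure D2:**
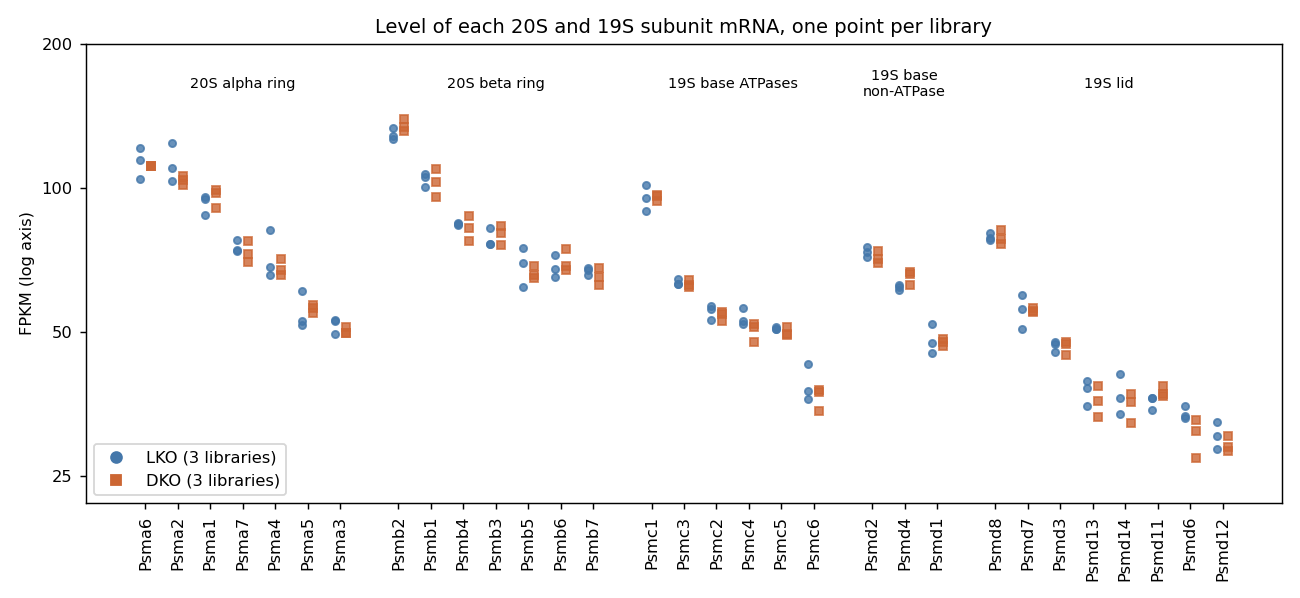
FPKM (log axis) of the 31 ring, base and lid genes in each of 3 LKO libraries (circles) and 3 DKO libraries (squares), ordered by LKO mean within each part of the particle. Levels run from an LKO mean of 130 FPKM for Psmb2 to 30.5 for Psmd12, and circles and squares are apart for Psmd4, Psmd11 and Psmd6 while those of the other 28 genes overlap.

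The 31 subunit genes had unequal RNA levels, and their order was alike in both groups. The highest LKO mean of the 31 was 4.26 times the lowest; within the 20S genes the ratio was 2.50 and within the 19S genes 3.13. The median gene of the 20S rings was at 76.9 FPKM and that of the 19S base and lid at 51.0, a ratio of 1.51 in LKO and 1.54 in DKO. Psmb2, Psma6, Psma2 and Psmb1 held the first 4 places in both groups, and no subunit moved by more than 3 places. Across the 31 genes, log2 mean FPKM in LKO and DKO had a Pearson r of 0.996 and a Spearman rho of 0.994; the genes share their libraries, transcript lengths and alignment, and the value is a description. Many neighbours in this order did not differ beyond their spread: in 22 of 30 neighbouring pairs the LKO libraries overlapped.

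Summed over the 31 subunits, the level was 2134, 2043 and 2039 FPKM in LKO and 2093, 2026 and 2014 in DKO. The DKO mean was 0.987 times the LKO mean, a difference smaller than the SD within either group (53.5 and 43.0 FPKM). The alpha ring summed to 573 ± 33.2 FPKM for LKO and 559 ± 8.26 for DKO, the beta ring to 601 ± 8.87 and 602 ± 23.2, the 6 ATPases to 358 ± 8.72 and 350 ± 4.30 and the lid to 356 ± 10.4 and 349 ± 7.79 (SD, n = 3 each). LKO replicate 1 stood apart in these genes: it held the highest FPKM of 16 of the 31 subunits, against 1 to 8 in each other library, and its alpha ring sum was 609 FPKM where the other 2 LKO libraries had 566 and 544. This library also stood apart beyond the 31 genes. Over genes with at least 20 counts in a pair, its chi-square per degree of freedom was 3.14 against LKO replicate 2 and 3.71 against LKO replicate 3. LKO replicates 2 and 3 gave 1.68, and the DKO pairs 2.22 to 2.34. Without LKO replicate 1, as with it, 1 of the 44 genes was called higher and none lower. The replicate-to-replicate coefficient of variation of a subunit had a median of 4.11% in LKO and 3.34% in DKO.

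The genes of the assembly chaperones Psmd5, Psmd9 and Psmd10, which help to build the 19S base and leave before it is complete, were expressed below every ring, base and lid gene. Their LKO means were 19.5 ± 0.267, 7.80 ± 0.241 and 13.9 ± 1.79 FPKM, and their DKO means 19.4 ± 1.68, 8.23 ± 0.946 and 12.9 ± 0.842. The groups overlapped in all 3. The log2 fold change was 0.00 ± 0.07 (SE) for Psmd5 (19.8, 19.4 and 19.3 FPKM in LKO and 20.1, 17.5 and 20.6 in DKO; edgeR adjusted p = 0.980). It was 0.09 ± 0.09 (SE) for Psmd9 (7.74, 7.60 and 8.07 FPKM in LKO and 8.84, 8.71 and 7.14 in DKO; edgeR adjusted p = 0.602) and −0.10 for Psmd10. Psma8, which replaces Psma7 in testis, was the lowest of the 44 genes, at 1.09, 0.66 and 0.99 FPKM in LKO and 0.92, 1.25 and 0.71 in DKO. Its groups overlapped (log2 fold change 0.08 ± 0.31 SE, edgeR adjusted p = 0.919). Psmb11, which replaces Psmb5 in the thymus, was listed at 2.33 ± 0.255 and 2.18 ± 0.180 FPKM from fractional counts, so that its reads were in part divided with another gene and its level is uncertain. Psme2b, also with fractional counts, was at 12.8 ± 1.29 and 13.5 ± 3.28 FPKM, and reads of this gene and Psme2 may be split between them. Psme3ip1 was at 22.8 ± 1.02 and 23.6 ± 1.74, and Psmc3ip at 1.12 ± 0.306 and 1.29 ± 0.576. None of these genes passed.

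The activator caps held the call among the members. Psme4 encodes PA200, a single-chain cap of the barrel, and was at 28.1, 27.1 and 26.3 FPKM in LKO and 29.7, 30.6 and 30.4 in DKO. All DKO libraries were above all LKO libraries. The log2 fold change of Psme4 was 0.17 ± 0.05 (SE), a rise of 1.12-fold with a 95% interval of 1.05 to 1.20 (edgeR adjusted p = 0.0169). Leaving out a library ended this call in 4 of 6 cases: the edgeR adjusted p was 0.0628 without LKO replicate 2, 0.0826 without LKO replicate 3, 0.0672 without DKO replicate 2 and 0.0715 without DKO replicate 3. Limma gave an adjusted p of 0.0658 on log2(FPKM + 1), 0.0673 with a pseudocount of 0.1 and 0.0706 without a filter. Psme4 overlaps the gene Erlec1 in the RefSeq table, and since no source used here states whether counting used strand, reads of the overlap cannot be told apart. Neutrophil and lymphocyte markers were lower and stromal markers and interferon genes higher in the same DKO libraries, and their part in the Psme4 difference was not tested.

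Psme1 and Psme2 encode the PA28 alpha and beta chains, which form 1 ring-shaped cap and are induced by interferon gamma. Psme1 was at 113, 117 and 111 FPKM in LKO and 121, 127 and 125 in DKO, without overlap. Its log2 fold change of 0.14 ± 0.05 (SE) did not pass (edgeR adjusted p = 0.0662), nor did it under any of the other fits (adjusted p between 0.0694 and 0.200). Psme2, the most abundant of the 44 genes, was at 189, 195 and 182 FPKM in LKO and 201, 191 and 192 in DKO, with overlap (log2 fold change 0.06 ± 0.05 SE, edgeR adjusted p = 0.504). Psme3 encodes PA28 gamma, the nuclear cap, and lay on the other side. It was at 52.2, 54.6 and 56.2 FPKM in LKO and 50.3, 49.9 and 51.2 in DKO, lower in each DKO library, with a log2 fold change of −0.10 ± 0.05 (SE) that did not pass (edgeR adjusted p = 0.222).

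Inducible catalytic subunits were set beside their constitutive counterparts. Psmb8, outside the rule, replaces Psmb5 in the immunoproteasome and was at 95.9, 92.0 and 97.2 FPKM in LKO and 110, 116 and 114 in DKO. The groups did not overlap, and the rise of 1.20-fold (95% interval 1.12 to 1.29; log2 fold change 0.26 ± 0.05 SE) passed, with an edgeR adjusted p of 0.000612. It also passed under each of the 13 other fits. Psmb9, the counterpart of Psmb6, was at 56.4, 60.3 and 62.0 FPKM in LKO and 68.1, 62.1 and 59.7 in DKO, with overlap (edgeR adjusted p = 0.384). Psmb10, the counterpart of Psmb7 and a member by the rule, was at 44.3, 47.1 and 44.1 FPKM in LKO and 51.0, 46.6 and 49.7 in DKO. These groups overlapped through DKO replicate 2, and the log2 fold change of 0.13 ± 0.06 (SE) did not pass (edgeR adjusted p = 0.171). Of 18 interferon response genes, all 18 rose in the same libraries, with a summed level of 454 to 561 FPKM in LKO and 874 to 993 in DKO. That list was drawn up with results of these libraries known, and its part in the Psmb8 difference was not tested.

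**Figure D3:**
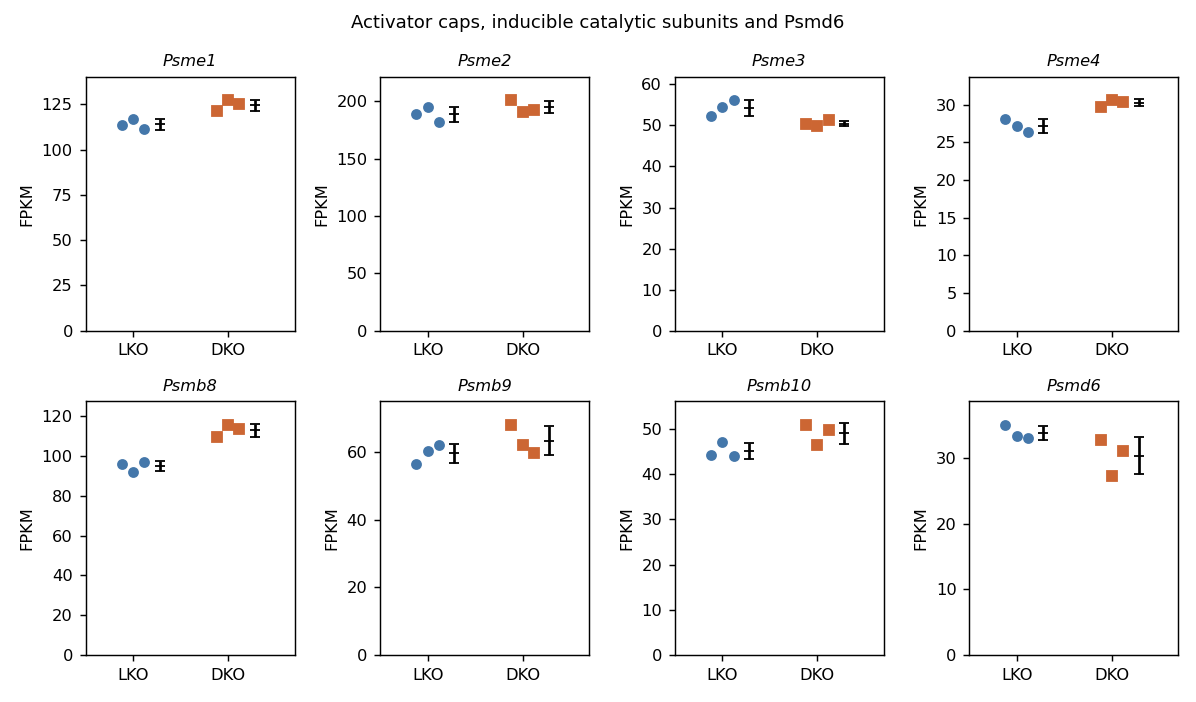
FPKM in each LKO library (circles) and DKO library (squares) for the 4 activator caps, the 3 inducible catalytic subunits and Psmd6, with mean and SD beside the points (n = 3 each, axes from 0). Psme4 and Psmb8 passed the test; Psme1 lies higher and Psme3 and Psmd6 lower in every DKO library without passing.

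The ratio of an inducible to its constitutive counterpart was computed within each library. Psmb8 over Psmb5 was 1.55, 1.32 and 1.30 in LKO and 1.60, 1.76 and 1.75 in DKO. The groups did not overlap, and the two-sided exact permutation p was 0.1 (0.3 after Benjamini-Hochberg adjustment over 3 ratios). As 0.1 is the lowest value reachable with 3 libraries a side, this test could not pass 0.05 for any ratio. The ratios were also chosen after values were seen, so these p-values decide nothing and the ratios are a description. Psmb9 over Psmb6 was 0.870 ± 0.047 and 0.901 ± 0.014 (SD, n = 3 each; exact permutation p = 0.4, adjusted 0.4). Psmb10 over Psmb7 was 0.673 ± 0.036 and 0.753 ± 0.061 (SD, n = 3 each; exact permutation p = 0.2, adjusted 0.3). Psmb8 was thus the more abundant of its pair in every library, while Psmb9 and Psmb10 were the less abundant of theirs. Counts of Psmb5 were fractional, so its reads were in part divided with another gene and the ratio over it is less certain.

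**Figure D4:**
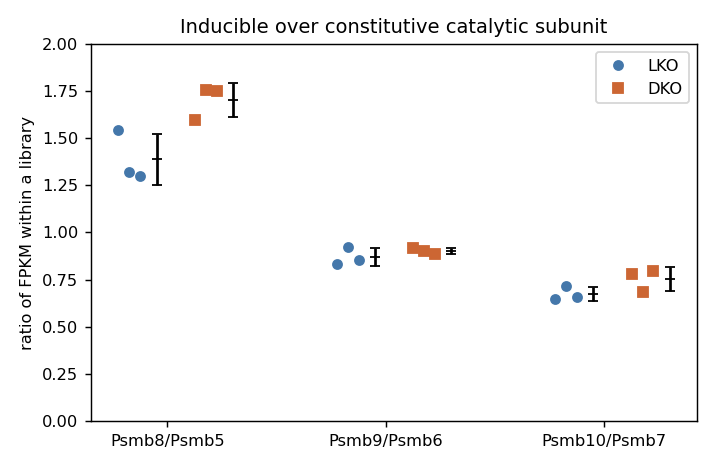
Ratio of FPKM of each inducible catalytic subunit to its constitutive counterpart in 3 LKO libraries (circles) and 3 DKO libraries (squares), with mean and SD beside the points. Psmb8/Psmb5 lies between 1.30 and 1.55 in LKO and between 1.60 and 1.76 in DKO, and the other 2 ratios lie below 1 in all 6 libraries with overlapping groups.

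Other genes of the pathway were taken from a list of 39, of which 38 were tested: 5 rose and none fell. Over all genes tested, 7.42% passed as higher and 6.88% as lower. Before adjustment 6 of the 38 were higher and 3 lower with an edgeR p under 0.05, against 13.1% and 12.7% of all genes tested. DESeq2 called 3 of the list higher, Psmb8 and Ubb among them, and none lower. Besides Psmb8, the genes that rose included the polyubiquitin gene Ubb, the protease gene Ddi2 and Zfand2a, the gene of an arsenite-inducible protein that binds the proteasome. The subunit genes with other symbols did not pass: Adrm1, a ubiquitin receptor of the base, had means of 45.5 ± 1.68 FPKM for LKO and 46.3 ± 0.798 for DKO (SD, n = 3 each, as for the next genes), and Sem1, a small lid subunit, at 173 ± 12.7 and 180 ± 14.4. Among the chaperones of 20S assembly, none of 5 passed, and Pomp, the maturation factor of the beta ring, was at 138 ± 8.15 and 129 ± 2.81 FPKM. Psmf1, which encodes an inhibitor of the core in vitro, was at 7.91 ± 0.373 and 8.24 ± 0.660. None of the 8 ubiquitin shuttle and segregase genes passed, among them Vcp at 159 ± 7.61 and 150 ± 4.28 FPKM.

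Nfe2l1, the transcription factor gene through which cells raise proteasome genes when the proteasome is impaired, was at 83.1, 83.1 and 86.6 FPKM in LKO and 83.4, 84.8 and 84.9 in DKO. The groups overlapped (log2 fold change 0.03 ± 0.04 SE, edgeR adjusted p = 0.733). Nfe2l2, its relative that drives antioxidant genes, was at 86.0, 81.3 and 83.9 FPKM in LKO and 76.9, 80.0 and 80.2 in DKO, lower in each DKO library without passing (log2 fold change −0.07 ± 0.05 SE, edgeR adjusted p = 0.334). Ddi2, which encodes the protease that cuts the NFE2L1 protein into its active form, was at 33.1, 34.5 and 32.7 FPKM in LKO and 36.6, 36.9 and 37.5 in DKO. It rose 1.11-fold (log2 fold change 0.16 ± 0.05 SE, edgeR adjusted p = 0.0327). Its counts were fractional and it overlaps Rsc1a1 in the RefSeq table, so reads of these genes may be split. The Ddi2 call was lost in DESeq2 (adjusted p = 0.0829), in the 3 limma fits, with the replicate number as a block (edgeR adjusted p = 0.0565), and without any 1 of LKO replicate 1 (0.0507), LKO replicate 3 (0.114), DKO replicate 1 (0.0647), DKO replicate 2 (0.0830) or DKO replicate 3 (0.139).

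The polyubiquitin gene Ubb was at 848, 925 and 951 FPKM in LKO and 1016, 989 and 990 in DKO, and rose by a log2 fold change of 0.13 ± 0.04 (SE; edgeR adjusted p = 0.0272). Its groups did not overlap. The Ubb call was lost in limma on log2(FPKM + 1) (adjusted p = 0.110), with a pseudocount of 0.1 (limma adjusted p = 0.107) and without a filter (limma adjusted p = 0.236). It was also lost in edgeR without LKO replicate 1 (adjusted p = 0.0614), without LKO replicate 2 (0.0721), without DKO replicate 1 (0.0899) and without DKO replicate 3 (0.0909). Rps27a, which encodes ubiquitin fused to a ribosomal protein, lay on the other side without passing. It was at 544, 498 and 494 FPKM in LKO and 488, 468 and 422 in DKO, without overlap (log2 fold change −0.14 ± 0.05 SE, edgeR adjusted p = 0.0725). Counts of both genes were fractional, and such genes share sequence with other ubiquitin genes and with pseudogenes, so their levels are uncertain.

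Zfand2a was at 10.5, 11.4 and 10.7 FPKM in LKO and 12.4, 12.9 and 12.5 in DKO, without overlap, and rose 1.17-fold (log2 fold change 0.22 ± 0.06 SE, edgeR adjusted p = 0.0203). Its counts were fractional. DESeq2 did not make this call (adjusted p = 0.147), nor did limma without a filter (adjusted p = 0.0656). Nor did edgeR without LKO replicate 1 (adjusted p = 0.0607), without LKO replicate 3 (0.0637), without DKO replicate 2 (0.0754) or without DKO replicate 3 (0.0616). Akirin2, which encodes the adaptor that carries proteasomes into the nucleus, was higher in each DKO library, at 28.3 ± 1.23 FPKM in LKO and 30.1 ± 0.649 in DKO, and did not pass (edgeR adjusted p = 0.323). The deubiquitinase genes of the 19S particle, Usp14 and Uchl5, were at 19.8 ± 1.51 and 10.1 ± 1.54 FPKM in LKO and 18.2 ± 0.280 and 8.53 ± 0.386 in DKO, and neither passed.

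**Figure D5:**
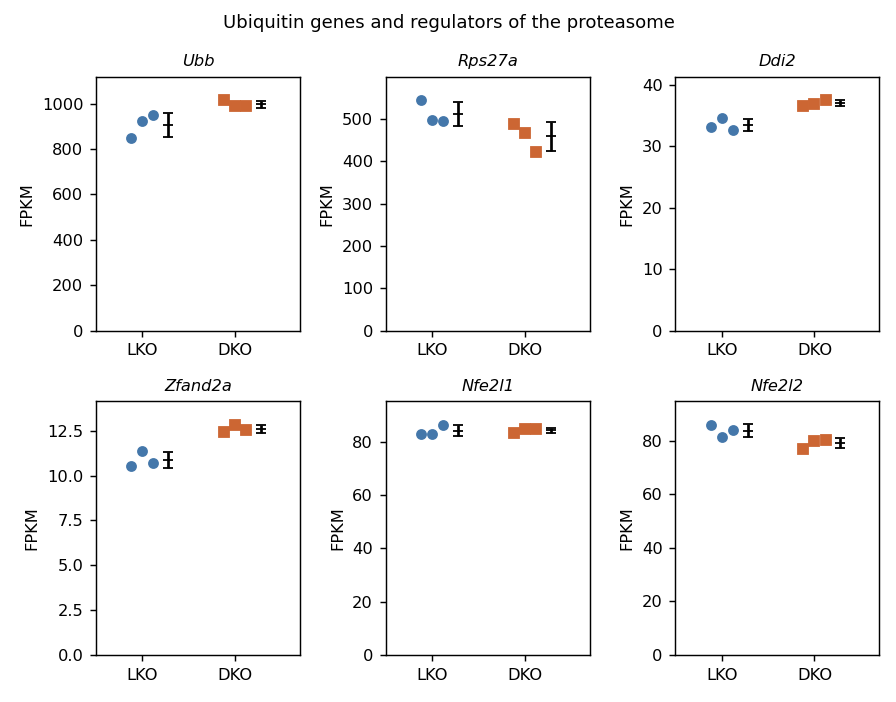
FPKM in each LKO library (circles) and DKO library (squares) for Ubb, Rps27a, Ddi2, Zfand2a, Nfe2l1 and Nfe2l2, with mean and SD beside the points (n = 3 each, axes from 0). Ubb, Ddi2 and Zfand2a passed as higher in DKO; Rps27a and Nfe2l2 lie lower in every DKO library without passing.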

How the data were processed

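RNA libraries of 3 LKO and 3 DKO macrophage samples were compared, grouped by their labels. Expected counts, the authors' estimates of reads per gene, and FPKM values, scaled by the authors to transcript length and library size, were deposited per sample, per the file headers. Per the submitters' processing notes, Bowtie 0.12.2 and build mm8 were used. How reads were counted, and with which strand setting, is not given in the sources used here. Files list genes from 0.01 FPKM, and genes absent from a file count as 0. Transcript lengths, per the file headers, were not used.

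Symbols came from a RefSeq table of GRCm38.p6, which matched 16832 of 16871 gene numbers. Its coordinates are printed only for the promoter stretches and are not those of the files' build. Of the members, 6 had fractional counts (over 0.005 from a whole number). Expected counts were rounded and tested in R 4.3.3 with edgeR 4.0.16 (filterByExpr, TMM, quasi-likelihood test, Benjamini-Hochberg adjustment over 11809 genes, threshold 0.05). Standard errors are the log2 fold change divided by the root of F, and 95% intervals use the total degrees of freedom of the fit. The chi-square per degree of freedom between replicates was 1.68 to 3.71, so each library counted once. The script was tested on simulated data.

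Alternatives were DESeq2 1.42.0, DESeq2 size factors, no count filter, a replicate block, limma 3.58.1 on log2(FPKM + 1) keeping genes that reach 1 FPKM in 3 libraries, a pseudocount of 0.1, no FPKM filter, each library left out, and a threshold of 0.01. With a pseudocount, limma understates changes of low genes. Every member may be named; of the other pathway genes, those that passed and a fixed set are named, and Akirin2, Vcp, Rps27a, Usp14 and Uchl5 were added after their values were seen, as were the 3 ratios. Some genes counted in the lists are not reported here by name. The members and lists were chosen with earlier results of these data known.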

Additional observations from a re-analysis of the deposited data

How the results depend on the processing

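Among all genes, 1689 passed. DESeq2 called 1141, limma with a pseudocount of 1 called 1130 and limma with a pseudocount of 0.1 called 1119. Limma without a filter called 807, and a threshold of 0.01 in edgeR 1005. The count of proteasome genes called higher, 1, became 0 in limma with a pseudocount of 1, in limma with a pseudocount of 0.1, in limma without a filter and at a threshold of 0.01, and lay between 0 and 1 when each library was left out in turn. The count called lower was 0 under every alternative run. With the replicate number as a block, edgeR called 1553 genes and the same 1 proteasome gene; same-numbered libraries had correlations of deviations between −0.06 and 0.02, so the numbers are not taken as pairs, and libraries did not each correlate best with their own number. Of 58 genes followed through 13 other fits, calls were lost in 34 instances, among them those of Psme4, Ddi2, Ubb and Zfand2a, gained in none, and no called gene changed sign; genes called in neither fit changed sign in 50 instances. The median log2 fold change of the members stayed between −0.02 and 0.02. The median SE of the members was 0.06 on the log2 scale, and Psma8 and Psmc3ip, with at most 23 and 19 counts in a library, are limited by depth.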
